A study of Mus musculus with 2 samples.

Results

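The effector genes of intraepithelial T cells were followed in single-cell RNA sequencing of sorted mouse intestinal epithelium. The set was named by symbol and held 10 genes, Gzma, Gzmb, Ccl5, Nkg7, Itgae, Fasl, Ifng, Xcl1, Klrd1 and Cd160, of the 32285 genes listed in both count tables. All 10 were found in both tables. Each was measured in T cells and in all other cells. A T cell was a barcode with at least 2 unique molecular identifiers (UMIs) of Cd3e, Cd3d and Cd3g together and at most 1 Epcam UMI. None of the 10 genes took part in that definition.

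Mice had received 2.5% dextran sulfate sodium (DSS), an agent that damages the gut lining, and intestinal epithelial cells were taken on day 7. There were 2 libraries, 1 from wild-type littermates (WT) and 1 from mice that overexpress MG53, also named TRIM72, throughout the body (MG53-TG). Both groups received DSS, so no uninjured tissue was part of the comparison, and neither the age of the mice nor how animals were combined into a library was stated. Live cells (7-AAD negative) carrying EpCAM had been sorted, and the study described them as EpCAM+CD45-. With 1 library per group there was no replicate check, all differences below compare these 2 libraries, and all intervals are 95% intervals that cover counting error only.

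Intraepithelial lymphocytes are T cells that live between the cells of the gut epithelium. They hold cytotoxic granules ready for release, carry receptors also found on natural killer (NK) cells, and are kept in place by an integrin that binds E-cadherin on epithelial cells. Many carry the γδ T cell receptor, whose δ constant region is encoded by Trdc, and others carry the αβ receptor with CD8.

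After filtering, 7609 WT and 5263 MG53-TG cells remained. T cells made up 833 of them in WT (10.9%, interval 10.3 to 11.7) and 315 in MG53-TG (5.99%, 5.36 to 6.66), a difference of -4.96 percentage points (MG53-TG minus WT, -5.91 to -4.00). With at least 2000 UMIs per cell it was -3.16 points (-4.07 to -2.23). A sort on EpCAM can set this share. Ptprc, which encodes CD45, had a UMI in 94.1% of WT and 97.5% of MG53-TG T cells, although the study described the cells as CD45-. Leaving aside the 3 Cd3 genes of the rule, 12 listed T cell markers all had UMIs in the T cells of both libraries. Their summed level was 9190.04 CPM in the WT T cells and 10458 CPM in those of MG53-TG, against 36.5 and 29.96 CPM in other cells, where CPM is a gene's UMIs per 1000000 UMIs of the cell group. T cells were shallow, with medians of 2625 and 3306 UMIs per cell, whereas other cells had medians of 15634 and 18680. The libraries shared 8 cell barcodes, none of them among T cells. Trim72 had 0 UMIs in WT T cells, which allows up to 1.18 CPM, and 55 UMIs (48.7 CPM) in MG53-TG T cells.

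The sequences just upstream of 3 members are shown, those of Gzma, Gzmb and Xcl1. In the results on co-detection, Gzma and Gzmb were found together with Xcl1 in fewer cells than expected. They are the 250 bases before the RefSeq transcription start on the gene's own strand (GRCm38.p6, the build called mm10), with the RUNX core motif TGTGGT, or its reverse complement, in capitals. RUNX proteins are transcription factors of T cells, and Runx3 is a regulator of cytotoxic genes.
Gzma (chr13:113100982-113101231, minus strand): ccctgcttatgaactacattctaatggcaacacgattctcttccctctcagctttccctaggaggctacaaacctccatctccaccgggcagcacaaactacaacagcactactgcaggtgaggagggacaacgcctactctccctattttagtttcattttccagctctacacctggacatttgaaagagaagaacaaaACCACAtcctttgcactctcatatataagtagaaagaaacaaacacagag
Gzmb (chr14:56262335-56262584, minus strand): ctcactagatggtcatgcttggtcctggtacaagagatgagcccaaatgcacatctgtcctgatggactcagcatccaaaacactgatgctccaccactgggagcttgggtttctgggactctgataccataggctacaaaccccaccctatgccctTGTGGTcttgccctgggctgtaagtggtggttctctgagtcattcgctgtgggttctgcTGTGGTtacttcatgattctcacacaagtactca
Xcl1 (chr1:164935523-164935772, minus strand): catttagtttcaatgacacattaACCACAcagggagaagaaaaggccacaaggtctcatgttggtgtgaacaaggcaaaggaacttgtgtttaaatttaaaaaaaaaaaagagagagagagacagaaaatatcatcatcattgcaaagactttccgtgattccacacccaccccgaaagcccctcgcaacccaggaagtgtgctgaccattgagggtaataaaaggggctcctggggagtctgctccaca
The RUNX core began 50 bases before the start of Gzma, 93 and 34 bases before that of Gzmb, and 227 bases before that of Xcl1. All 3 genes are protein coding. For Gzmb the RefSeq start lay 74 bases from the start of the gene in the GENCODE annotation, for Xcl1 5 bases, and for Gzma the starts were the same. Windows of 300 bases, from 250 before to 50 after the start, were held for 7 of the 10 members. The RUNX core was in the windows of 5 of these 7 genes (Gzma, Gzmb, Nkg7, Xcl1 and Cd160), and in 16.8% of the 32851 windows of all genes. The T-box core GGTGTG, on either strand, was in the windows of 4 of the 7 (Nkg7, Fasl, Xcl1 and Cd160), against 19.0% of all windows. The TCF/LEF core CTTTGA, on either strand, was in those of 1, Cd160, against 16.0%. Cd160 had 2 windows, and its TCF/LEF matches lay only in the one whose start was 14830 bases from the GENCODE start. The members are counted per gene, whereas the shares of all windows are per window. In 1 Cd160 window the RUNX and T-box matches overlapped. These matches describe letters in a window and do not show binding.

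The cytotoxic granule genes stood among the most abundant transcripts of the T cells. The kit tags each transcript at its 3′ end, so levels of different genes are given in CPM without division by length. Gzma, which encodes granzyme A, a protease of cytotoxic granules, gave 90248 UMIs in WT T cells (35634 CPM, 35402 to 35867) and 43138 in MG53-TG T cells (38217 CPM, 37857 to 38580). It ranked first of all genes in both libraries, mitochondrial genes included, and took 3.56% and 3.82% of all T cell UMIs. The median T cell of WT held 82 Gzma UMIs and that of MG53-TG 113, while the highest single cells held 934 and 950. Gzmb, encoding granzyme B, a protease that starts apoptosis in target cells, was lower, at 3905 CPM in WT (9891 UMIs) and 4626 in MG53-TG (5222 UMIs), which placed it at ranks 28 and 18. Nkg7, encoding a granule membrane protein needed for release, was at 2127 CPM in WT and 2314 in MG53-TG.

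Of the secreted and surface ligands, Ccl5 was almost as abundant as Gzma, and the others were sparse. Ccl5, a chemokine that attracts T cells and myeloid cells, was at 30190 CPM in WT T cells (76461 UMIs) and 33938 in MG53-TG T cells (38308 UMIs), rank 2 in both libraries. Fasl, encoding the ligand of the death receptor Fas, was at 160 and 162 CPM (405 and 183 UMIs). Xcl1, a chemokine read by XCR1 on cross-presenting dendritic cells, was at 126 CPM in WT (112 to 140) and 95.7 in MG53-TG (78.5 to 116). Ifng, encoding interferon γ, was near the limit of detection, with 28 UMIs in 25 of 833 WT T cells and 15 UMIs in 14 of 315 MG53-TG T cells (11.1 and 13.3 CPM). Cytokine mRNA of this kind was thus read from few molecules, and its values carry the widest intervals of the set.

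The receptors and the integrin lay between these extremes. Klrd1, encoding CD94, the partner chain of NKG2 receptors that bind Qa-1, was at 776 CPM in WT and 903 in MG53-TG T cells. Itgae, encoding CD103, the integrin chain that with β7 binds E-cadherin, was at 675 and 838 CPM. Cd160, encoding a receptor for HVEM, was at 379 and 473 CPM.

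**Figure D1:**
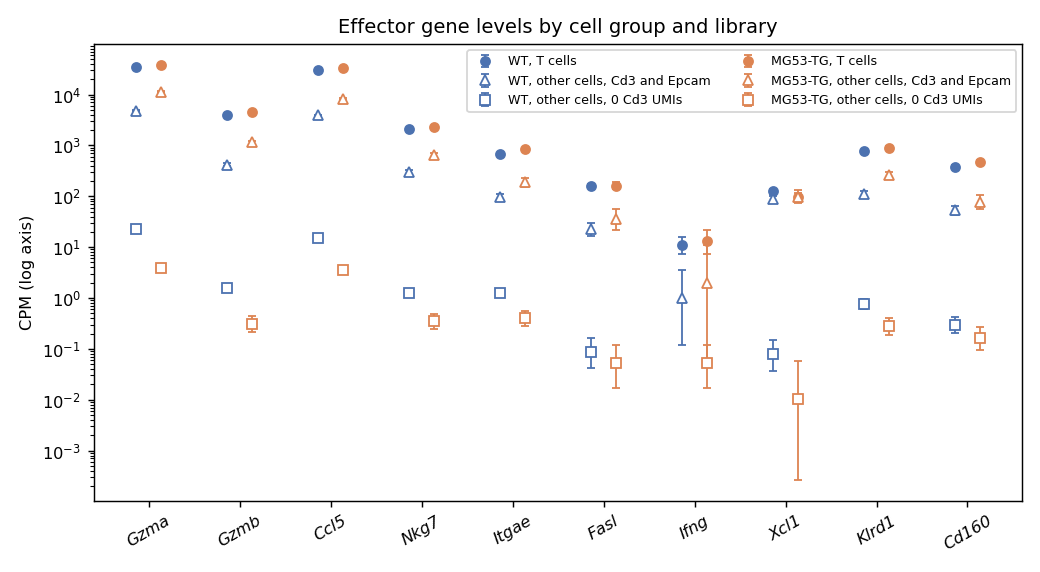
CPM (log axis) of the 10 genes in T cells, in other cells with at least 2 Cd3 and at least 2 Epcam UMIs, and in other cells with 0 Cd3 UMIs, by library, with exact Poisson 95% intervals. T cells lie highest for each gene except Xcl1 in MG53-TG, where both Cd3-positive groups lie near 100; Ifng had 0 UMIs in WT cells with 0 Cd3 UMIs and has no point there.

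The shares of T cells with a UMI were compared at equal depth, as the share expected when each cell is thinned to 1000 UMIs. At that depth Ccl5 was in 95.6% of WT and 97.1% of MG53-TG T cells, Gzma in 84.4% and 84.8%, Nkg7 in 83.2% and 84.0%, and Gzmb in 73.7% and 77.0%. Itgae was in 48.5% of WT T cells (45.1 to 52.0) and 55.5% of MG53-TG T cells (49.9 to 61.1), and these intervals overlap. Klrd1 reached 42.3% and 45.5%, and Cd160 29.3% and 33.5%. The sparse ligands were in 15.5% and 14.9% (Fasl), 6.92% and 5.40% (Xcl1), and 1.09% and 1.30% (Ifng). The order of the 10 genes by share was the same in both libraries, but some neighbours in it had overlapping intervals. These were Gzma and Nkg7, and Itgae and Klrd1, in each library, and Nkg7 and Gzmb, and Xcl1 and Ifng, in MG53-TG. Without thinning the MG53-TG shares stood further above the WT shares for several genes, for example 77.9% and 90.8% for Itgae and 53.4% and 63.5% for Cd160, with the deeper T cells in MG53-TG.

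**Figure D2:**
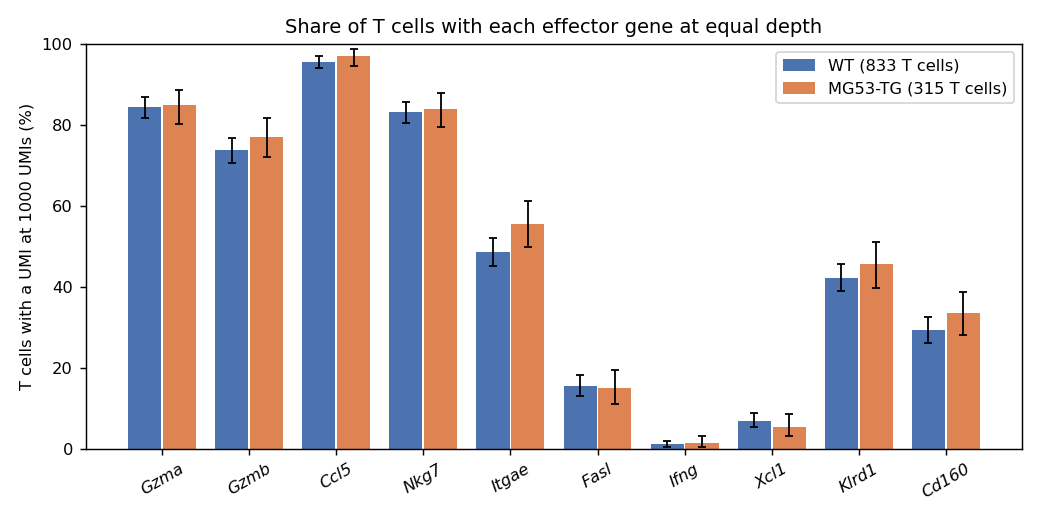
Bars give the share of T cells (%) expected to hold at least 1 UMI of each gene at 1000 UMIs per cell, with exact binomial 95% intervals, in 833 WT and 315 MG53-TG T cells. The shares run from over 95% (Ccl5) to near 1% (Ifng), and the intervals of the 2 libraries overlap for each gene.

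The members were higher in T cells than in other cells in both libraries. They were chosen as T cell effector genes with earlier results of these data known, so this excess was built into the list and is a description only. All 10 were past a 2-fold difference in favour of T cells in each library, where 26% of 16137 genes in WT and 25.8% of 15799 genes in MG53-TG were past it, among genes with at least 10 UMIs. The median log2 ratio of T cells over other cells was 8.37 in WT and 9.27 in MG53-TG, against medians of -0.01 and -0.09 over all genes tested. In WT it ran from 6.33 (Xcl1) to 9.35 (Ifng, 7.36 to 12.5, from 2 UMIs in other cells), and in MG53-TG from 7.54 (Xcl1) to 9.71 (Cd160). Of all Gzma UMIs, T cells held 88.1% in the WT and 87.6% in the MG53-TG library. Of all Xcl1 UMIs they held 63.3% and 68.4%.

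Most of the remaining UMIs were in a small group of barcodes with both Cd3 and Epcam RNA, at least 2 UMIs of each. There were 113 in WT (1.49% of cells) and 36 in MG53-TG (0.684%). They held 9561 of the 12234 Gzma UMIs outside T cells in WT and 5725 of 6098 in MG53-TG. For Xcl1 they held 175 of 184 and 49 of 50. Their median depths, 13501 and 9422 UMIs, exceeded those of T cells. Removing the barcodes with the highest doublet scores took out 75 of the 113 and 16 of the 36, and 11 of 833 and 4 of 315 T cells. In cells with 0 Cd3 UMIs, Gzma was at 22.7 CPM in WT and 3.86 in MG53-TG, and a Ccl5 UMI was found in 11.2% and 5.31% of these cells at median depths of 15576 and 18703 UMIs. WT droplets with under 100 UMIs, 1434027 in number and not cells, held Gzma at 2812 CPM, 7.89% of its level in WT T cells, and Ccl5 at 2728 CPM. The MG53-TG table began at 500 UMIs per barcode, so free RNA was not measured there. Of the WT cells with 0 Cd3 UMIs, 264 also had 0 Epcam UMIs, and they held 1046 of the 2558 Gzma UMIs, at 1215 CPM. The 192 such cells of MG53-TG held 32 of 370, at 54.7 CPM. The 6268 WT cells with an Epcam UMI were at 13.5 CPM, against 3.54 CPM in the 4689 of MG53-TG. These low levels in Epcam-positive cells are not read as expression by epithelial cells.

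Across the whole libraries, as a bulk assay would read them, all 10 genes were lower in MG53-TG. Gzma was at 849 CPM in WT and 501 in MG53-TG, Ccl5 at 715 and 435, and Gzmb at 90.6 and 59.3. The median log2 ratio of MG53-TG over WT was -0.69, from -1.37 (Xcl1, -1.64 to -1.11) to -0.22 (Ifng, -1.09 to 0.64), beside a median of 0.06 over 17124 genes. Only Xcl1 was past the 2-fold limit, where 2.84% of genes were past it in that direction and 2.44% in the other. The share of T cells was also lower in MG53-TG, as given above.

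Within T cells the picture differed: 9 of the 10 genes were higher in MG53-TG and Xcl1 was lower, all by small amounts, and the signs for Fasl and Ifng changed under some alternatives that kept all T cell types. In Cd8b1-positive T cells alone, Gzma and Gzmb were lower, with counting intervals below 0. The ratios of Ccl5 (-0.009, -0.06 to 0.04), Klrd1 (-0.27, -1.06 to 0.47) and Fasl (-0.53, -1.51 to 0.35) were also negative there, but their intervals included 0. Over all T cells, 57.4% of the 10520 genes tested were higher. No member was past the 2-fold limit, in a comparison where 2.42% of 10520 genes were past it upward and 4.88% downward. The log2 ratios of MG53-TG over WT were 0.10 for Gzma (0.08 to 0.12), 0.24 for Gzmb (0.20 to 0.29) and 0.12 for Nkg7 (0.05 to 0.19). Among the ligands they were 0.17 for Ccl5 (0.15 to 0.19), 0.02 for Fasl (-0.24 to 0.28), 0.27 for Ifng (-0.75 to 1.22) and -0.39 for Xcl1 (-0.72 to -0.07). The receptors had 0.22 (Klrd1, 0.11 to 0.33) and 0.32 (Cd160, 0.16 to 0.47), and the integrin chain Itgae had 0.31 (0.20 to 0.43). The median over the members was 0.19. Over all 10520 genes it was 0.07, and over the 4700 genes with at least 100 UMIs it was 0.09, with the 5th and 95th percentiles at -0.39 and 0.51. Xcl1 fell on the lower of these percentiles, and the 9 others lay inside the range. The 12 T cell markers outside the Cd3 rule were also higher in MG53-TG, with a median of 0.21, although with median-of-ratios scaling Cd247 and Trbc1 were lower, as was Trbc1 with mitochondrial or Paneth cell genes left out of the totals. The 3 γ constant genes, found in the tables under other symbols and not among these 12, were not higher: Tcrg-C1 had a log2 ratio of -0.15 (-0.27 to -0.03), Tcrg-C2 was at 620.3 and 620.2 CPM, and Tcrg-C4 was at 379 and 378 CPM.

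Epithelial RNA in the T cell barcodes differed between the libraries and entered the totals used for scaling. RNA of 27 Paneth cell granule genes, mostly defensins, took 3.24% of the T cell UMIs of WT but 0.168% of those of MG53-TG. In WT droplets under 100 UMIs they took 5.17%. Among genes with at least 100 UMIs over both libraries, the 5 lowest in MG53-TG T cells were all of this kind, Defa30 for example at 6149 and 258 CPM. The 5 highest were Lgals1, Wls, Egr1, Agr2 and Klra7, with log2 ratios of 1.48 to 1.12. Of these, Agr2, a gene of secretory epithelial cells, was at 80.9 and 183 CPM, so epithelial genes did not all lie lower. All 11 listed epithelial markers had UMIs in the T cells of both libraries, summed to 1126 and 813 CPM, and 10 of the 11 were lower in MG53-TG (all 11 with median-of-ratios scaling). Markers of other immune cells lay far below the T cell markers in T cells. The 6 NK and innate lymphoid genes summed to 151 and 175 CPM, the 9 myeloid genes to 77.8 and 93.9 CPM. The 5 B and plasma cell genes summed to 55.3 and 47.8 CPM. The 4 mast cell genes summed to 74.6 and 60.2 CPM, nearly all from Kit (73.8 and 60.2 CPM). Sparse members such as Fasl and Xcl1 had levels of this size. With the Paneth genes left out of the totals the median member ratio was 0.15, and with only T cells under 2 epithelial marker UMIs it was 0.08. In that last set 1 member, Ifng, was past 2-fold (-1.17), where 6.13% of 8287 genes were past it downward. The ratio of Fasl changed sign in 5 of 12 alternatives that kept all T cell types, and that of Ifng in 2. Xcl1 stayed lower in all 12 (-0.51 to -0.31), and each of the other 7 stayed higher. Program version, barcode filtering and library coincide with genotype here and cannot be told apart.

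**Figure D3:**
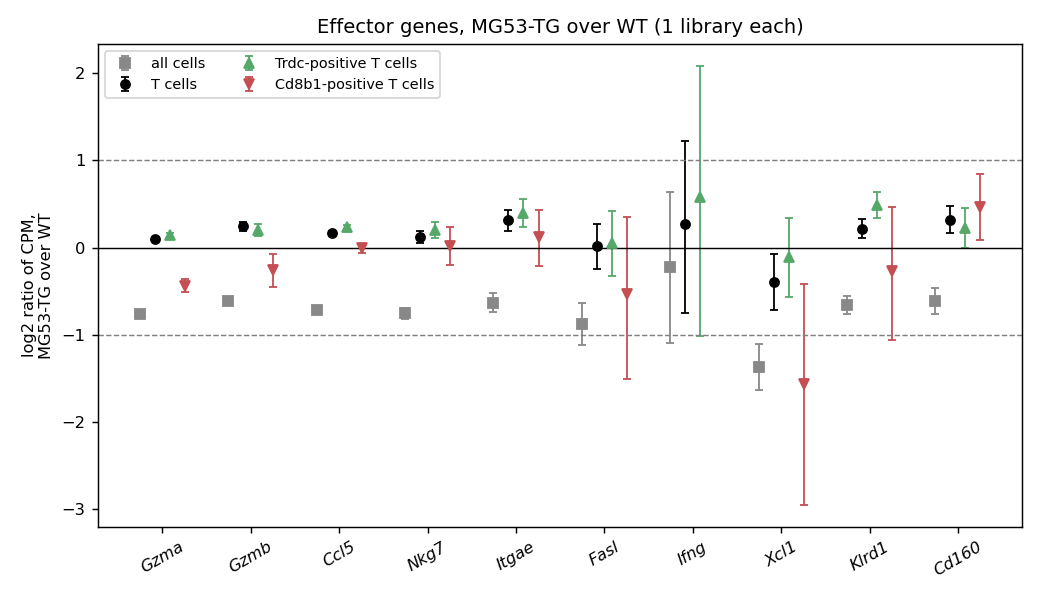
Log2 ratio of CPM, MG53-TG over WT, for each gene in all cells, all T cells, Trdc-positive and Cd8b1-positive T cells, with exact 95% counting intervals (points from at least 10 UMIs); dashed lines mark 2-fold. All-cell ratios lie below 0 for each gene, T cell ratios between -0.39 and 0.32, and Cd8b1-positive cells lie below Trdc-positive cells for each gene shown in both but Cd160.

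The members were spread unevenly over T cell types. T cells with a Cd8b1 UMI numbered 135 in WT (16.2% of T cells) and 46 in MG53-TG (14.6%), and those with a Trdc UMI and no Cd8b1 UMI numbered 358 (43.0%) and 132 (41.9%). Trac, the constant region of the α chain, had a UMI in 50.3% and 61.4% of the Trdc-positive and in 62.2% and 76.1% of the Cd8b1-positive cells. Tcrg-C1, a γ constant region, had a UMI in 84.9% and 85.6% of the Trdc-positive and in 14.1% and 15.2% of the Cd8b1-positive cells. Both groups are called by their rule. Klrd1 was the member with the widest gap: 785 CPM in Trdc-positive and 181 in Cd8b1-positive cells of WT, and 1099 and 150 in MG53-TG (log2 ratios 2.12, 1.74 to 2.52, and 2.88, 2.25 to 3.58). Gzma was at 38461 against 19014 CPM in WT and 42523 against 14044 in MG53-TG (log2 ratios 1.02 and 1.60), and Gzmb had ratios of 0.70 and 1.16. Cd160 went the other way, with 381 CPM in Trdc-positive against 499 in Cd8b1-positive cells of WT and 447 against 691 in MG53-TG (-0.39, -0.65 to -0.13, and -0.63, -0.98 to -0.27). Ccl5 differed little between the types, with ratios of 0.08 and 0.32, and Nkg7 had ratios of 0.22 and 0.40. For Itgae, Fasl, Ifng and Xcl1 the intervals included 0 in both libraries. The ratios of Itgae, Ifng and Xcl1 were negative in WT and positive in MG53-TG. T cells with Cd4 and neither other gene were too few, 16 and 14, to rank members in. The remaining T cells, with a UMI of none of these 3 genes, numbered 324 in WT (38.9%) and 123 in MG53-TG (39.0%).

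The difference between the libraries also varied by type for the granzymes. In Cd8b1-positive cells Gzma was at 19014 CPM in WT and 14044 in MG53-TG (log2 ratio -0.44, -0.51 to -0.36), while in Trdc-positive cells it was at 38461 and 42523 (0.14, 0.12 to 0.17). Gzmb had ratios of -0.26 (-0.45 to -0.07) and 0.20 (0.14 to 0.27). These rest on 46 Cd8b1-positive MG53-TG cells, and the difference between the types was not tested. Xcl1 was past the 2-fold limit in Cd8b1-positive cells, from 49 UMIs in WT and 7 in MG53-TG (-1.56, -2.95 to -0.41), in a comparison of few cells where 10.4% of 5619 genes were past it downward. In Trdc-positive cells it was at 117 and 109 CPM (-0.10, -0.57 to 0.34).

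Most T cells held UMIs of several members. The median T cell had UMIs of 6 members in WT and 7 in the deeper T cells of MG53-TG, without thinning, 3 WT and 2 MG53-TG cells had none, and no cell had all 10. A UMI can also come from free RNA, whose member levels in WT droplets under 100 UMIs were 7.76% (Klrd1) to 30.3% (Ifng) of those in WT T cells. At 1000 UMIs per cell, Gzma was in 1.37% of WT and 0.728% of MG53-TG cells with 0 Cd3 UMIs, and the part of free RNA in the T cell counts was not tested. Gzma and Gzmb were in the same cells: 662 of the 670 Gzmb-positive WT T cells also had Gzma, as did 259 of 266 in MG53-TG. At equal depth the number of cells with both was 1.17 times the product of their shares in WT and 1.15 times in MG53-TG. Across T cells, the Pearson correlation of log-scaled levels of Gzma and Gzmb was 0.82 over 833 WT cells and 0.80 over 315 MG53-TG cells, and that of Gzma and Ccl5 0.71 and 0.68. These cells share a library and vary in depth, so the correlations are given as descriptions.

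Xcl1 ran against this pattern in both libraries. Gzma and Xcl1 were found together at 0.43 (WT) and 0.49 (MG53-TG) times the number expected from their shares, and Gzmb and Xcl1 at 0.33 and 0.43 times. Xcl1 and Cd160 were together more often, in 33.8 WT T cells at equal depth against 16.9 from the product of their shares, and in 10.5 against 5.69 in MG53-TG. Cd160 with Gzma stood at 0.85 and 0.88. Most other pairs lay close to 1. A pair with a gene held by most T cells, such as Ccl5, Gzma or Nkg7, cannot lie far above 1. That limit also holds for Gzma and Gzmb above. Values near 1 for such pairs thus do not show that the genes are independent.

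**Figure D4:**
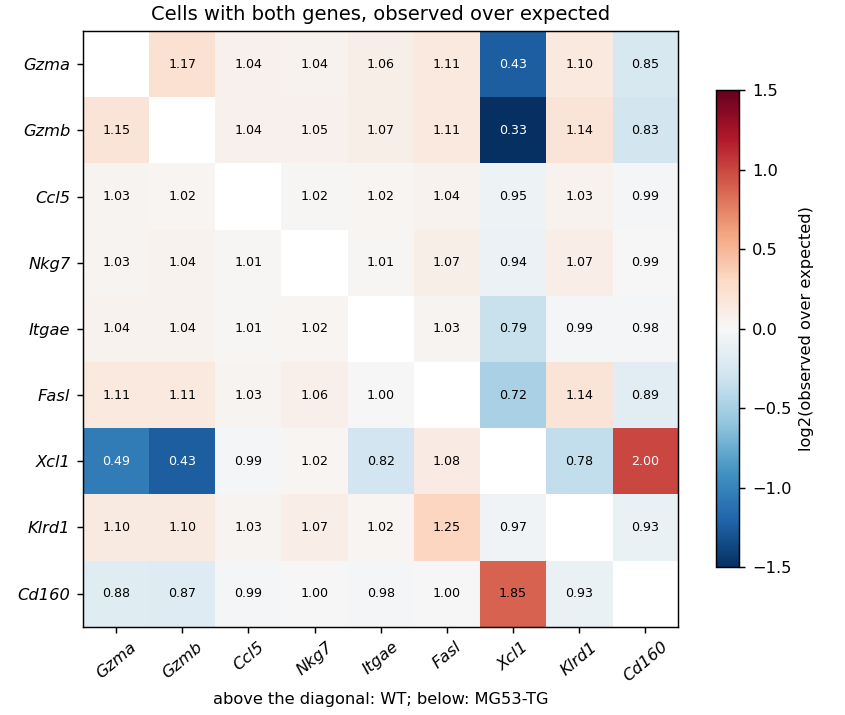
Number of T cells with UMIs of both genes over the number expected from each gene's own share, all at 1000 UMIs per cell, above the diagonal in WT and below it in MG53-TG (color: log2 of that ratio; Ifng left out for its few UMIs). The Xcl1 cells with Gzma and Gzmb are the lowest, 0.33 to 0.49, and Xcl1 with Cd160 is the highest in both libraries, at 2.003 in WT and 1.85 in MG53-TG.

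The split by Xcl1 was then read gene by gene, a step chosen after these values were seen. Of 103 WT T cells with an Xcl1 UMI, 45 had a Gzma UMI (43.7%), against 670 of the 730 without Xcl1 (91.8%). In MG53-TG it was 16 of 33 (48.5%) against 255 of 282 (90.4%). The Gzma level was 9648 CPM with and 40929 without Xcl1 in WT, and 17005 and 40816 in MG53-TG. Gzmb was at 819 and 4534 CPM in WT and at 2054 and 4942 in MG53-TG. Cd160 was higher in Xcl1-positive cells, at 718 against 310 CPM in WT and 925 against 418 in MG53-TG. Median depths with and without Xcl1 were 2746 and 2615 UMIs in WT and 3617 and 3223 in MG53-TG. In WT the mean depth of Xcl1-positive cells was higher by more than these medians show. Summed CPM gives such deep cells more weight, and the part of depth in the split was not tested. Cd8b1-positive cells made up 18.4% of the Xcl1-positive and 15.9% of the other T cells in WT, and 18.2% and 14.2% in MG53-TG. Trdc-positive cells made up 41.7% and 43.2% in WT, and 33.3% and 42.9% in MG53-TG. Tcf7 and Id3 are the genes most correlated with Xcl1 over these same T cells, and Klrk1 was singled out from the listed genes after its values were seen, so their excess is given as a description only. Tcf7, encoding TCF-1, a factor of memory-like and less differentiated T cells, was at 86.3 against 21.4 CPM in WT (37 UMIs in Xcl1-positive cells) and 154 against 31.8 in MG53-TG (19 UMIs). Id3, an inhibitor of E proteins, was at 60.7 against 13.3 and at 73.1 against 10.9, from 26 and 9 UMIs. Klrk1, encoding NKG2D, was at 51.3 against 8.56 and at 89.3 against 12.9, from 22 and 11 UMIs.

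**Figure D5:**
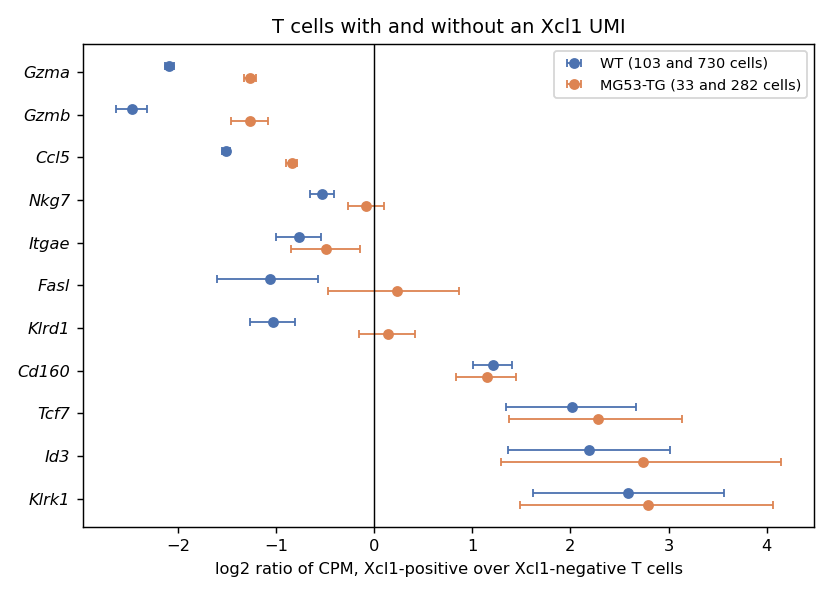
Log2 ratio of CPM in T cells with an Xcl1 UMI over T cells without, by library, with exact 95% counting intervals (103 and 730 WT cells, 33 and 282 MG53-TG cells). Gzma, Gzmb and Ccl5 lie left of 0 and Cd160, Tcf7, Id3 and Klrk1 right of 0 in both libraries, while Fasl and Klrd1 lie left of 0 in WT alone.

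Among genes outside the set, the one most like each member across T cells was picked by the smaller of its correlations in the 2 libraries, over 5964 genes. Fgl2, encoding a fibrinogen-like protein, was the nearest for both Gzma (0.42) and Gzmb (0.43). Klrd1 was nearest to Fcer1g, encoding a signalling adaptor chain (0.51), Nkg7 to Srgn, encoding the granule proteoglycan serglycin (0.35), and Ccl5 to Cd7 (0.32). Xcl1 was nearest to Tcf7 (0.22) and Cd160 to Rpl18, a ribosomal protein gene (0.21). No gene reached 0.2 for Itgae, Fasl or Ifng. Weak values of this size in sparse counts are descriptions only.

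Counts of related genes higher in MG53-TG T cells stand beside the 57.4% of all genes that were higher. Of 13 other genes of granule content and release, 10 were higher and 3 lower in MG53-TG T cells (7 and 6 with median-of-ratios scaling), and 1 was past 2-fold, the granzyme gene Gzmc (log2 ratio -1.79, 31 and 4 UMIs). Prf1, encoding the pore protein perforin, was at 95.6 and 124 CPM. Of 9 other ligand genes, 5 had at least 10 UMIs and all 5 were higher, with Il17a past 2-fold (1.70, 9 and 13 UMIs). The chemokine genes Ccl3 and Ccl4 had ratios of 0.65 (0.28 to 1.02) and 0.49 (0.31 to 0.67), but in MG53-TG the 33 T cells with an Xcl1 UMI held 51 of the 105 Ccl3 and 202 of the 404 Ccl4 UMIs. In T cells without Xcl1, Ccl3 was at 67.0 CPM in WT against 53.7 in MG53-TG, and Ccl4 at 277 against 201. In Trdc-positive cells the ratios were -0.33 (-1.002 to 0.304) for Ccl3 and -0.43 (-0.75 to -0.11) for Ccl4, and in Cd8b1-positive cells -2.21 (-7.64 to 0.57) and -0.55 (-1.37 to 0.20). Of 11 NK-type receptors and adaptors, 8 were higher and 3 lower (7 and 4 with that scaling or with Paneth cell genes left out of the totals). Of 11 regulators with enough UMIs 7 were higher and 4 lower (6 and 5), and neither list had a gene past 2-fold. All 5 retention and homing genes with enough UMIs were higher, though not Cd69 with that scaling, among them Itga1, encoding the other integrin chain of resident T cells (0.25, 0.13 to 0.38), and Itgb7, encoding the partner of CD103 (0.19, -0.02 to 0.40).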

How the data were processed

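The authors deposited counts of UMIs per gene and barcode, not normalized, made with Cell Ranger (version 4 for WT and 6.0.1 for MG53-TG per the file headers) on mm10. The submitters' processing notes also name Seurat. The WT table held 1487899 barcodes with a UMI and that of MG53-TG 12361, with totals of 158455748 and 128227881 UMIs. Cells were barcodes of 1000 or more UMIs and 200 or more genes, of whose UMIs no more than 25% were mitochondrial. Counts were summed per library and cell group and divided by the group's total (Python 3.11.15, scipy 1.17.1). Poisson and binomial intervals were exact, and those of share differences followed Newcombe. With 1 library per group no test was made, and genes with at least 10 UMIs over both libraries and a 2-fold ratio were counted as past the limit. The ratio and thinning steps were checked on simulated data. Scrublet in scanpy 1.11.5 marked 0.0131% and 0.057% of cells by its automatic threshold, so doublets stayed in, and removal of the highest scores (6.08% and 4.22% of cells) was an alternative. The γ constant genes are listed under Tcrg-C symbols, so the rule for Trdc- or Trgc-positive cells was applied by Trdc, with the Tcrg-C genes as an alternative. Strand use and the treatment of multi-mapped reads are not given in the sources used here, so near-identical family members such as defensins are uncertain. The members and the gene lists were chosen with earlier results of these data known. Genes named were the members, the listed genes, the nearest gene per member at a correlation of at least 0.2, and the extremes of the T cell comparison.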

Additional observations from a re-analysis of the deposited data

Results flagged for a closer look

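Gzma and Gzmb were singled out because their ratio of MG53-TG over WT had opposite signs in 2 T cell types, with counting intervals on opposite sides of 0. The log2 ratio of Gzma was -0.44 in Cd8b1-positive and 0.14 in Trdc-positive T cells, and that of Gzmb was -0.26 and 0.20. When Tcrg-C genes also counted toward the second type, its ratios were 0.13 and 0.29. The difference between the types was not tested, and the Cd8b1-positive values rest on 135 WT and 46 MG53-TG cells.

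Member RNA also appeared in WT droplets with under 100 UMIs, which the comparisons did not use. Gzma had 16808 UMIs there and Ccl5 16311.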

How the results depend on the processing

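No paired analysis was possible because each group has 1 library. The T cell share difference of -4.96 points kept its sign under all 7 alternatives, and moved beyond its interval to -3.16 with at least 2000 UMIs per cell and to -4.00 with 0 Epcam UMIs. The median member log2 ratio of 0.19 in T cells moved to 0.092 with 0 Epcam UMIs, to 0.11 with median-of-ratios scaling, to 0.13 as a mean of single-cell values, to 0.081 in T cells under 2 epithelial marker UMIs (added after seeing the data), and to -0.26 in Cd8b1-positive T cells alone. The number of members past 2-fold rose from 0 to 1 in Cd8b1-positive T cells (Xcl1) and to 1 under 2 epithelial marker UMIs (Ifng, -1.17), where 10.4% and 6.13% of all genes were past it downward. The cause of these shifts was not tested. Of the ratios of single members, 116 of the values under alternatives stayed within the counting interval and 33 moved out of it. Against cells with 0 Cd3 UMIs, the T cell excess of members grew in the 36 values that moved. Counting limits Ifng most, and the unmeasured spread between animals limits every comparison.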

Other observations

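The chemokine genes Ccl3 and Ccl4 split differently by Xcl1 in the 2 libraries. In WT T cells Ccl4 was at 142 CPM with and 277 without an Xcl1 UMI, and in MG53-TG it was at 1640 and 201. Ccl3 was at 21.0 and 67.0 in WT and at 414 and 53.7 in MG53-TG. The MG53-TG values rest on 33 Xcl1-positive cells, and the difference was not tested. At equal depth the share of all T cells with a Ccl3 UMI differed by -0.47 points (MG53-TG minus WT), and that with a Ccl4 UMI by 2.38 points. The higher Ccl3 level in MG53-TG T cells was thus not matched by a higher share of cells with a UMI.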
